A study of Mus musculus with 12 samples.

Results

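The difference between the 2 genotypes in their change from postnatal day 1 (P1) to postnatal day 21 (P21) was measured for 13537 of the 56748 genes in a table of mouse heart RNA, namely those that reached 1 FPKM or more in 3 or more of the 12 libraries, all of which entered. FPKM is the fragment count per kilobase of a gene after scaling for library depth. For each gene the change of wild-type hearts was subtracted from the change of knockout hearts on the scale of log2(FPKM + 0.5), so that a positive value marks a gene whose change with age was more upward, or less downward, in knockout. This scale understates the change of genes with low FPKM.

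Whole-heart RNA from Mus musculus was sequenced in 4 groups of 3 libraries, which were wild type at P1, Csrp3 knockout at P1, wild type at P21 and Csrp3 knockout at P21. Strain, sex, litter and the allele of the knockout are not in the labels, which also do not say whether samples within a group came from separate animals, so p-values measure the spread between these samples. Because a heart was measured as a whole, fewer cells of a type and less RNA per cell cannot be told apart. Every library carried high RNA of cardiomyocytes, with the 15 marker genes summing to between 14731 and 59695 FPKM.

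Csrp3 encodes muscle LIM protein, a small protein of the Z-disc of striated muscle that is linked to the sensing of stretch and whose loss causes dilated cardiomyopathy in mice. In the weeks after birth a mouse heart stops most of its cell division, turns from glucose and lactate to fatty acids, fills with mitochondria and exchanges fetal for adult isoforms of its contractile proteins. A difference between genotypes in the change with age asks whether this course runs alike with and without Csrp3.

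Reads in genes numbered between 9.671 and 15.86 M (megareads) per library. Wild-type P21 libraries 1 and 2, whose library names carry an R that wild-type P21 library 3 lacks, had the fewest reads and 17344 and 15811 genes above 0, against 18348 to 20208 in the other P21 libraries and 21012 to 22353 at P1. Replicates correlated across genes at r of 0.963 to 0.982 in wild type and 0.955 to 0.968 in knockout at P1, and at 0.909 to 0.926 and 0.935 to 0.962 at P21. RNA of Xist, which marks female tissue, was 5.54 to 21.3 FPKM in all 3 wild-type P21 libraries and 19.4 to 19.6 FPKM in knockout P21 libraries 1 and 3, whereas knockout P21 library 2 carried RNA of Y-linked genes. At P1, wild-type libraries 2 and 3 carried Y-linked RNA and wild-type library 1 and knockout libraries 1 and 2 carried Xist. Knockout P1 library 3 had little of either, with Xist at 0.262 FPKM and the Y-linked Eif2s3y at 2.31 FPKM, against 21.2 to 23.7 FPKM of Eif2s3y in the 3 libraries with Y-linked RNA. The part of depth and sex in the results below was not tested beyond the values given beside them.

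Csrp3 RNA was present in all libraries, those labelled knockout included. At P1 it stood at 183, 179 and 238 FPKM in wild type and at 168, 94.3 and 147 FPKM in libraries with the knockout label. At P21 the wild-type libraries held 1068, 1397 and 572 FPKM and those with the knockout label 671, 1112 and 926 FPKM, which overlap. Csrp3 rose with age by 2.26 on the log2 scale in wild type (SE 0.37, adjusted p = 0.000827, limma) and by 2.73 in the libraries labelled knockout (SE 0.37, adjusted p = 0.00047). The difference between these changes was 0.48 (95% interval -0.67 to 1.62). The table lists the gene at chr7:48480146-48497781 on the minus strand, and a count over a whole gene does not check a deletion of a part of it.

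No gene passed an adjusted p of 0.05 for the genotype by day difference (limma, 0% of 13537 genes; smallest adjusted p 0.507). An unadjusted p under 0.05 was seen for 940 genes, or 6.94%, of which 526 were positive and 414 negative. A positive difference, at any p, was seen in 51.9% of all genes tested. A second method, voom on the reads that the FPKM steps gave back, also called 0 genes and left 926 at an unadjusted p under 0.05. The median difference over all genes was 0.02 with quartiles of -0.31 and 0.34, and the median SE was 0.37, against 0.26 for the change with age within 1 genotype. Without wild-type P21 library 3 the same test called 293 genes, 129 positive and 164 negative, and no other omission of a library gave a call.

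Maturation itself was large in both genotypes. From P1 to P21, 6077 genes passed in wild type (44.9% of those tested; 2917 rose and 3160 fell) and 3388 passed in knockout (25%; 1599 rose and 1789 fell). Both genotypes passed in the same direction for 2925 genes, which is 48.1% of the wild-type calls and 86.3% of the knockout calls, and in opposite directions for 3. Wild type alone passed for 3149 genes and knockout alone for 460, yet for none of these did the difference between the genotypes pass. At P21 alone, knockout and wild type differed in 9 genes (0.0665%), among them Fhl1 and Hspb6.

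The genes described next were named by a rule that took, in each direction, the 12 named genes with the smallest unadjusted p and a group mean of at least 5 FPKM. All had an adjusted p of 0.687 for the difference, so their values are descriptions of single genes and none is a call. Sequences are shown for 2 sets of these. The promoter windows of Fhl1 and Hspb6, from 250 bases before to 50 bases after the gene start, are given because these are the muscle genes with the smallest p in the difference that also passed at P21. They are from RefSeq (GRCm38.p6), for Fhl1 chrX:56779433-56779732 on the plus strand and for Hspb6 chr7:30552290-30552589 on the plus strand, each being the first of 2 entries. Capitals mark matches, on either strand, to the TATAAA motif, the CCAAT box, the CArG box of serum response factor or the MEF2 box.
Fhl1: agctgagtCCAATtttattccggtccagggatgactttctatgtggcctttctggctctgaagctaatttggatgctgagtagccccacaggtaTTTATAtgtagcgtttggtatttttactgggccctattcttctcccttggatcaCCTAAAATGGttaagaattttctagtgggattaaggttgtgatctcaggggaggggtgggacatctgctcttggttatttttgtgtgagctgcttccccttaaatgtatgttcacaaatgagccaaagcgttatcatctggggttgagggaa
Hspb6: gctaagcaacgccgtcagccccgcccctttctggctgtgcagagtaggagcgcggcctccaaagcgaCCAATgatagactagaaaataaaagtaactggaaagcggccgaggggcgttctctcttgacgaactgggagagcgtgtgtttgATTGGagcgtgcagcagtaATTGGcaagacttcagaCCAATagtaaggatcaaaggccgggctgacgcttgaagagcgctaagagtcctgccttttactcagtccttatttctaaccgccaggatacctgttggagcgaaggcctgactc

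The Fhl1 window held a CArG box 102 bases before the start, a TATAAA on the other strand and a CCAAT, none of them overlapping another. The Hspb6 window held CCAAT at 4 places and no other of the motifs searched, which were these 4 and TGANTCA. Among all 27025 RefSeq promoter windows of this length, 14.2% held TATAAA, 37.9% CCAAT, 7.93% TGANTCA, 1.57% a CArG box and 3.26% a MEF2 box. A window was found for 10 of the 12 positive and 8 of the 12 negative genes. TATAAA was in 2 of these positive and 1 of these negative windows, CCAAT in 5 and 2, and the CArG box, the MEF2 box and TGANTCA each in 1 and 0. A match is a string of letters and not a bound site.

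Muscle genes made up the first group, all but Lmod2 from the list of Z-disc, stretch and wall stress genes. Fhl1 encodes a LIM protein that sits at the sarcomere and takes part in the hypertrophic response. Its FPKM was 59.4, 48.4 and 51.4 in wild type against 46.8, 51.7 and 61.9 in knockout at P1, and 50.3, 38.2 and 43 in wild type and 106, 177 and 184 in knockout at P21. All 3 knockout P21 libraries lay above the other 9, and the other groups overlapped. Fhl1 rose with age in knockout by 1.5 (SE 0.24, adjusted p = 0.00125) and differed by -0.28 (SE 0.24, adjusted p = 0.368) in wild type, which gave a difference of 1.77 (95% interval 1.03 to 2.52). At P21 the adjusted p between genotypes was 0.0187.

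Hspb6, a small heat shock protein that protects cardiomyocytes, had an FPKM of 44.8, 45.9 and 38 in wild type and 41.1, 54.9 and 53.9 in knockout at P1. At P21 it was 144, 156 and 273 in wild type against 782, 555 and 718 in knockout. The groups overlapped at P1 and were apart at P21. It rose in both genotypes, by 2.09 in wild type (adjusted p = 0.000228) and by 3.76 in knockout (adjusted p = 8.31e-06), with a difference of 1.67 (SE 0.39, 95% interval 0.83 to 2.52). Hspb6 overlaps Lin37, which is on the other strand and had a mean of 6.57 FPKM.

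Lmod2, a leiomodin that lengthens thin filaments, stood at 206, 168 and 153 FPKM in wild type and 415, 366 and 348 FPKM in knockout at P21, with no overlap, after 74.3 to 118 and 63.7 to 82 FPKM at P1. It rose by 0.89 in wild type (adjusted p = 0.0106) and by 2.31 in knockout (adjusted p = 7.64e-05), a difference of 1.42 (SE 0.34). Hspb7, another small heat shock protein of heart muscle, differed by 1.32 (SE 0.38), from a mean of 421 to 399.9 FPKM in wild type and of 396 to 909 FPKM in knockout. Pdlim5, which ties signalling proteins to the Z-disc, differed by 0.87 (SE 0.29) and reached 51.8, 66.3 and 84.1 FPKM in wild type and 105, 135 and 106 FPKM in knockout. For both, the knockout P21 libraries lay above all wild-type P21 libraries.

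**Figure D1:**
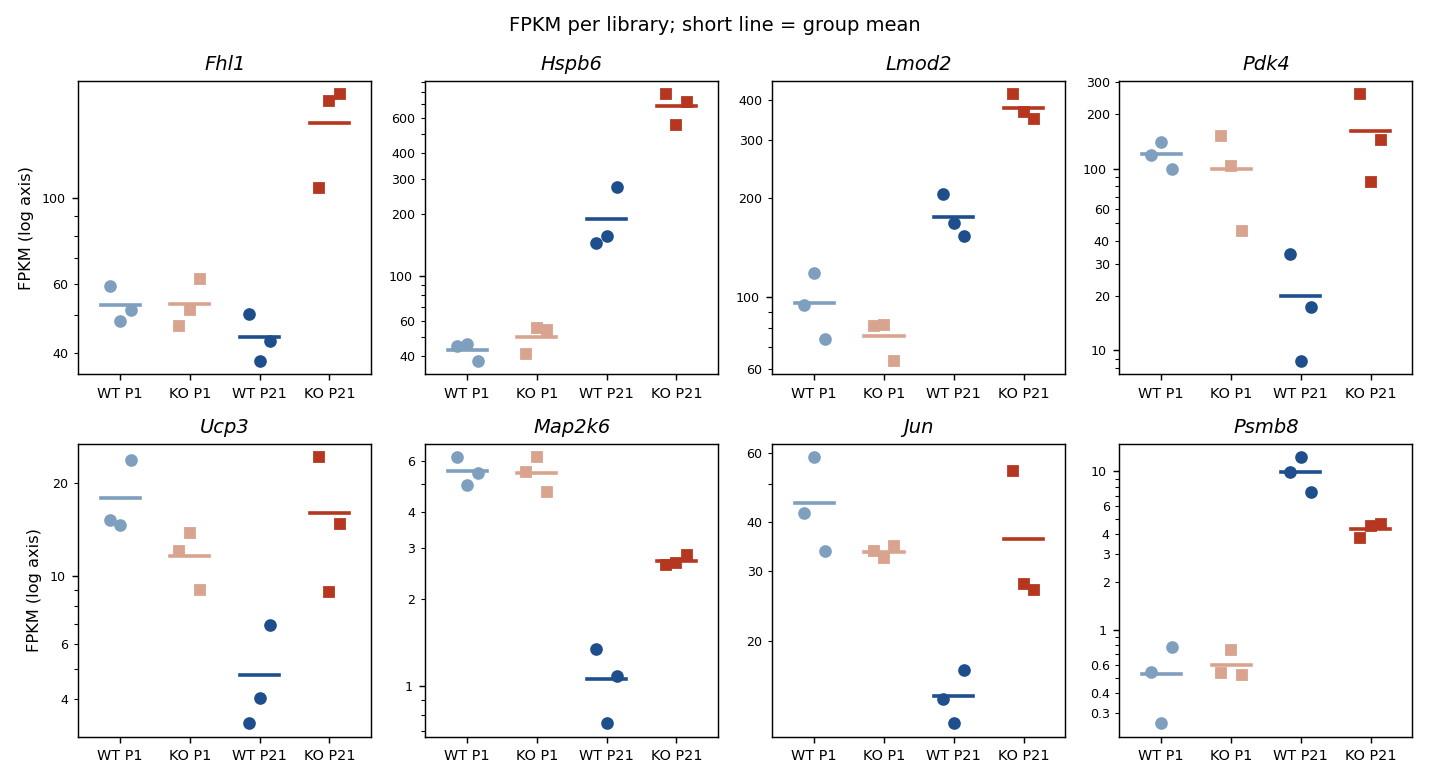
FPKM (log axes) of 8 genes in each of the 12 libraries, as circles for wild type (WT) and squares for knockout (KO) at P1 and P21, with the mean of each group as a short line. Fhl1, Hspb6 and Lmod2 stand highest in the 3 knockout P21 libraries (106, 555 and 348 FPKM at the lowest), while Pdk4, Ucp3, Map2k6 and Jun are lowest, and Psmb8 highest, in wild type at P21.

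Of the 29 tested genes on the list of Z-disc, stretch and wall stress genes, 25 had a positive difference and 12 had an unadjusted p under 0.05, all positive. That is 41.4% against 6.94% over all genes. This list and those below were written with earlier results of these data known, so such shares are descriptions and not tests. The median difference of the 29 genes was 0.87, with median changes with age of 0.70 in wild type and 1.29 in knockout. The list holds the muscle ankyrin repeat protein Ankrd1 (1.84, SE 0.64), which responds to load, and its relatives Ankrd23 (1.47) and Ankrd2 (1.29), as well as the Xin actin-binding proteins Xirp2 (1.32) and Xirp1 (0.98). The metallothionein Mt1 had the lowest value of the list, -1.13 (SE 0.93), and endothelin 1 (Edn1) and Csrp2, a relative of Csrp3, were at -0.46 and -0.42. Some chaperones and filament genes were near 0, with 0.17 for desmin (Des), 0.09 for Cryab, 0.06 for Bag3, 0.12 for Hspb1 and -0.05 for Hspb8. The LIM protein Fhl2 was at 0.11. Against the average over all 12, the median of the list was -0.04, 0.13 and 0.05 in the wild-type P21 libraries and 0.76, 0.80 and 0.98 in the knockout P21 libraries. The median difference was 0.61 without wild-type P21 libraries 1 and 2.

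The natriuretic peptides Nppa and Nppb, which ventricles release under strain, varied widely between libraries. Nppb was at 228 ± 144 FPKM in wild type and 766 ± 471 FPKM in knockout at P21 (SD, n = 3), with a difference of 0.80 (95% interval -0.96 to 2.57). Nppa had 185, 32.4 and 509.9 FPKM in wild type and 613, 764 and 1953 FPKM in knockout at P21, with a difference of 2.23 (SE 1.24, 95% interval -0.49 to 4.94). At P1 the genotypes overlapped, at 297 to 863 and 396 to 1458 FPKM. Nppa is also an atrial gene, and the summed FPKM of 15 atrial markers, Nppa among them, ran from 205 to 1537 in wild type and from 719.9 to 4114 in knockout at P21. The median difference over the atrial markers was 0.20, with 11 positive. This value rested on single libraries, since it was 1.08 without wild-type P21 library 3, 0.95 and 0.87 without knockout P21 libraries 2 and 1, 0.41 without knockout P1 library 1, -0.04 without knockout P21 library 3 and -0.11 without wild-type P21 library 1. The part of atrial tissue in the Nppa values was not tested.

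The 27 tested sarcomere genes had a median difference of 0.20, with 15 positive and 12 negative, and of 0.38 without knockout P21 library 2. Acta1, the skeletal alpha-actin that hearts express before birth and again under load, was the exception in size. Its FPKM at P21 was 43.3, 612 and 209.8 in wild type against 2009, 1117 and 2495 in knockout, after 15.8 to 38.3 FPKM in the 6 P1 libraries. The 2 genotypes did not overlap at P21, but the wild-type libraries lay far apart, and the difference of 3.03 had an SE of 1.05 and a 95% interval of 0.72 to 5.34. Ldb3, the Z-disc protein also called Cypher, differed by 0.75 (SE 0.32). Tnnt1, slow skeletal troponin T, differed by 0.74 (SE 0.34). Tnni3, the adult cardiac troponin I, differed by -0.91 (95% interval -2.03 to 0.21).

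Genes of fuel choice formed a second group among those with the smallest p. Pdk4 encodes the kinase that switches pyruvate dehydrogenase off and spares glucose when fat is burnt. Its FPKM was 119.8, 140.2 and 100.2 in wild type against 151, 103 and 45.3 in knockout at P1, and 33.9, 8.77 and 17.3 in wild type and 257, 85 and 145 in knockout at P21. All wild-type P21 libraries lay below the other 9. Pdk4 fell in wild type by 2.74 on the log2 scale (SE 0.54, adjusted p = 0.0023) and differed by 0.72 in knockout (SE 0.54, adjusted p = 0.368), a difference of 3.46 (95% interval 1.78 to 5.15).

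Ucp3, a mitochondrial carrier of muscle that follows fatty acid supply, went the same way. It measured 14.6 to 23.7 FPKM in wild type and 9.02 to 13.8 FPKM in knockout at P1, and 3.33, 4.04 and 6.95 FPKM in wild type and 24.2, 8.83 and 14.7 FPKM in knockout at P21. The P21 groups were apart by little, with 6.95 and 8.83 FPKM as the nearest libraries. The difference was 2.17 (SE 0.5), with a fall of wild type by 1.82 (adjusted p = 0.00212) and a value of 0.34 in knockout (adjusted p = 0.519). Cpt1b, the muscle enzyme that admits long-chain fatty acids to mitochondria, differed by 1.57 (SE 0.53) at a low level of 0.869 and 2.74 FPKM at P21. Pdha1, a subunit of pyruvate dehydrogenase itself, was at 48.4, 54.2 and 102 FPKM in wild type and 121, 131 and 111 FPKM in knockout at P21, a difference of 0.91 (SE 0.37).

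The 33 genes of fatty acid uptake and oxidation had a median difference of -0.02, with 6 at an unadjusted p under 0.05 above 0 and 1 below, or 21.2% against 6.94% over all genes. This median was 0.14 without wild-type P21 library 2. The 23 genes of the citrate cycle and ketone use had a median of -0.05, and the 24 of glycolysis and glucose uptake one of -0.14 with none at an unadjusted p under 0.05. Without wild-type P21 library 2 these medians were 0.17 and 0.05. Etfb, the beta subunit of the flavoprotein that takes electrons from fatty acid oxidation, was on the other side with -2.13 (SE 0.72). Its FPKM at P21 was 567, 571 and 114 in wild type against 94.4, 122 and 74.5 in knockout, so that wild-type library 3 lay among the knockout libraries.

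**Figure D2:**
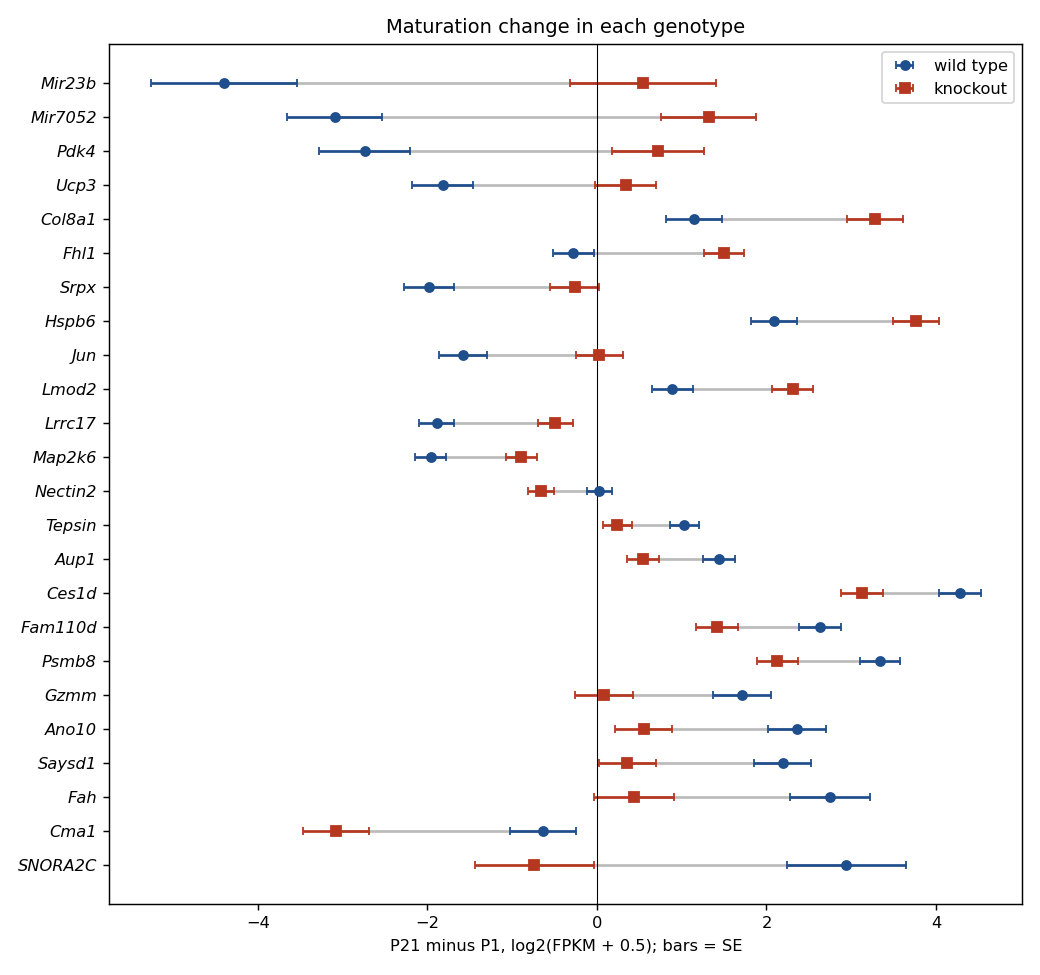
Change from P1 to P21 on the log2(FPKM + 0.5) scale, in wild type (circles) and knockout (squares), with SE as bars, for the 12 genes per direction that the rule named. The grey line between both symbols is the genotype by day difference, which runs from 4.94 for Mir23b to -3.68 for SNORA2C.

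Genes of the extracellular matrix were the third group with positive differences. Col8a1, a short-chain collagen of vessel walls and of fibrosis, measured 0.371 to 0.565 FPKM in wild type and 0.135 to 0.506 FPKM in knockout at P1. At P21 it was 0.791, 2.14 and 2.61 FPKM in wild type and 5.21, 8.41 and 9.01 FPKM in knockout, with no overlap. It rose by 1.15 in wild type (adjusted p = 0.0159) and by 3.28 in knockout (adjusted p = 7.51e-05), a difference of 2.13 (SE 0.47).

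A further 3 matrix genes had the next smallest p of their list. Postn, the periostin of activated fibroblasts, was high at P1 in both genotypes, at 83 to 127 FPKM, and at 3.11, 8.18 and 10.9 FPKM in wild type and 16.6, 44.5 and 23.6 FPKM in knockout at P21, a difference of 2.08 (SE 0.59). Cilp, a matrix protein made by cardiac fibroblasts, differed by 2.33 (SE 0.64) and reached 0.121, 1.25 and 2.08 FPKM in wild type and 3.88, 9.15 and 6.78 FPKM in knockout. Bgn, the proteoglycan biglycan, differed by 1.60 (SE 0.46), at 11.2, 23.7 and 31.8 FPKM in wild type and 48.8, 50.9 and 67.4 FPKM in knockout. In all 3 genes the P21 groups did not overlap, and wild-type P21 library 1 was the lowest.

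Over the 44 tested matrix genes, 42 had a positive difference, 14 had an unadjusted p under 0.05 and all 14 were positive (31.8%, against 6.94% over all genes). The median change with age was -1.14 in wild type and -0.24 in knockout, and the median difference was 0.89. It was 1.96 for Col1a1 and 1.55 for Col1a2, the chains of type I collagen, 1.62 for Col14a1, 0.87 for fibronectin (Fn1), 0.11 for decorin (Dcn) and -0.15 for Mgp. The median of the list in the wild-type P21 libraries was -1.07, -0.63 and -0.13 relative to the mean of all libraries, and in knockout 0.00, -0.27 and 0.33. Wild-type library 3 was therefore within the range of the knockout libraries, and without wild-type libraries 1 and 2 the median difference was 0.45. The 15 fibroblast markers, which include Col1a2, Lum and Vcan, had a median difference of 0.72 with 14 positive, while their summed FPKM at P21 overlapped, at 1190 to 1424 in wild type and 1082 to 1698 in knockout. The part of fibroblast number in the matrix values was not tested.

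Srpx and Lrrc17, which encode secreted proteins, were also among the 12 positive genes. Srpx fell in wild type from 4.52 to 5.8 FPKM at P1 to 0.438, 0.709 and 1.86 FPKM, and stood at 3.02, 4.31 and 4.1 FPKM in knockout at P21, a difference of 1.73 (SE 0.41). Lrrc17 fell in wild type to 0.537, 1.19 and 1.37 FPKM and stood at 2.85, 3.17 and 2.72 FPKM in knockout, a difference of 1.40 (SE 0.30). For both the knockout P21 libraries were all above those of wild type.

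The p38 pathway, to which the series title ties Csrp3, held 1 of the named genes. Map2k6 encodes a kinase that activates p38. Its FPKM was 6.18, 4.98 and 5.44 in wild type against 5.5, 6.2 and 4.7 in knockout at P1, and 1.35, 0.745 and 1.09 in wild type and 2.62, 2.66 and 2.85 in knockout at P21. It fell in both genotypes, in wild type by 1.96 on the log2 scale (adjusted p = 2.97e-05) and in knockout by 0.89 (adjusted p = 0.005), and the difference was 1.08 (SE 0.26, 95% interval 0.51 to 1.64). Map3k7, the TAK1 kinase upstream of it, differed by 0.75 (SE 0.29), and Map2k4 by 0.39 (SE 0.22). Mapk14, p38 alpha itself, was at 23.1, 36.8 and 23.1 FPKM in wild type and 20.1, 20.9 and 17 FPKM in knockout at P21. Its difference was -0.49 (95% interval -1.08 to 0.10). When libraries were scaled without mitochondrial and the 20 most abundant genes it became 0.02. That scaling also moved the median of all genes, from 0.02 to 0.44, so Mapk14 stayed below it. Of the 24 tested genes of the pathway 20 were positive, with a median of 0.26, or 0.74 under that scaling. Of these 24, 2 had an unadjusted p under 0.05 (8.33%, against 6.94% over all genes). Relative to the mean of all 12, this list had a median of 0.06 in wild-type P21 library 3. That value lay inside the range of the knockout P21 libraries, 0.01 to 0.07. Wild-type P21 libraries 1 and 2 stood lower, at -0.11 and -0.13. Leaving both out lowered the median difference of the list to 0.09.

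Rnf5, a ubiquitin ligase of the endoplasmic reticulum that the title also names, had an FPKM of 13.9, 7.42 and 12.6 in wild type and 10, 13.8 and 11.6 in knockout at P1. At P21 it was 3.13, 6.46 and 5.66 in wild type against 11, 10.8 and 10.4 in knockout. The groups overlapped at P1 and were apart at P21. Rnf5 fell in wild type by 1.09 on the log2 scale (adjusted p = 0.00773) and differed by -0.12 in knockout (adjusted p = 0.795), a difference of 0.97 (SE 0.38, 95% interval 0.13 to 1.81). The 24 tested genes of degradation at the endoplasmic reticulum had a median of 0.00, with 12 on each side. Aup1, which recruits ubiquitin enzymes there, differed by -0.89 (SE 0.27). Aup1 overlaps Htra2 on the other strand, which had a mean of 8.42 FPKM.

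Among immediate early genes, which respond within minutes to stress and stretch, Jun had the smallest p. Its FPKM was 42.2, 58.6 and 33.8 in wild type against 33.7, 32.4 and 34.8 in knockout at P1, and 14.2, 12.3 and 16.8 in wild type and 54.1, 27.9 and 26.9 in knockout at P21. It fell in wild type by 1.58 (adjusted p = 0.00119) and was at 0.03 in knockout (adjusted p = 0.949), a difference of 1.61 (SE 0.39). Atf3, a stress-induced partner of Jun, was at 4.73, 4.68 and 3.62 FPKM in wild type and 38.1, 14 and 10.1 FPKM in knockout at P21 and differed by 2.03 (SE 0.58). Egr1 differed by 2.20 (SE 0.81), and its P21 groups overlapped, at 3.08, 11.3 and 29.6 FPKM in wild type and 42.1, 21.2 and 36.9 FPKM in knockout. Ccn1, a matrix-associated early gene, differed by 1.69 (SE 0.67). Knockout P21 library 1 was the highest of the 12 for Atf3, Egr1 and Ccn1. The list of 20 tested genes had a median of 0.27, with 4 at an unadjusted p under 0.05 above 0 and 1 below, Ier3 (-1.03, SE 0.44), or 25% against 6.94% over all genes. The median was 0.03 without wild-type P21 library 2 and 0.43 without knockout P21 library 2.

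Cell cycle genes ended low in both genotypes. The 40 genes of mitosis and cytokinesis had a median change of -2.81 in wild type and -2.63 in knockout, and none had an unadjusted p under 0.05 for the difference. Their median difference of 0.23, with 31 positive, turned to -0.38 without knockout P1 library 1, in which the list stood at 0.07 against 1.91 and 2.05 in the other knockout P1 libraries. It was 0.04 without wild-type P1 library 1, and 0.46, 0.41 and 0.58 without wild-type P1 library 3 and knockout P1 libraries 2 and 3. For these genes of low FPKM it also moved with the scale, to 0.62 with a pseudocount of 0.1 FPKM, 0.11 with one of 1 FPKM, 0.59 on the TPM scale and 1.12 with voom. Mki67, the proliferation antigen, was at 0.0385, 0.153 and 0.313 FPKM in wild type and 0.854, 0.586 and 0.68 FPKM in knockout at P21, after 3.73 to 17.7 FPKM at P1, a difference of 0.91 (95% interval -0.55 to 2.37). Ccnb2, a mitotic cyclin, was at 0.759, 0 and 0.294 FPKM against 1.22, 1.18 and 1 FPKM and differed by 1.14 (95% interval -0.10 to 2.39). For both genes the P21 groups did not overlap, at levels near the lower limit of the genes tested. The 38 genes of DNA replication had a median of 0.05, which was -0.31 without knockout P1 library 1.

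Among the 18 tested G1 cyclins, kinases and inhibitors, 2 had an unadjusted p under 0.05 (11.1%, against 6.94% over all genes), both positive, and the median was 0.26. Ccnd1, cyclin D1, was at 1.04, 1.38 and 9.46 FPKM in wild type and 13.8, 8.16 and 9.78 FPKM in knockout at P21, a difference of 1.84 (SE 0.81). Btg2, a gene that restrains cell division, was at 19.2, 19.1 and 36.5 FPKM in wild type and 61.5, 32.2 and 36.8 FPKM in knockout at P21 and differed by 0.98 (SE 0.43). Cdkn1a, an inhibitor of cyclin-dependent kinases, was at 105, 22.2 and 15.3 FPKM in wild type and 12.3, 13.1 and 15.6 FPKM in knockout, a difference of -1.59 (95% interval -3.21 to 0.03). In all 3 genes wild-type P21 library 3 lay within the range of the knockout libraries. The median of these 18 genes was 0.07 without wild-type P21 library 2 and -0.11 without libraries 1 and 2. Of the 25 tested imprinted and fetal growth genes 22 were positive, with a median of 0.32 and changes with age of -2.11 in wild type and -1.58 in knockout. Gnas, Nnat and Igf1 differed by 1.23 (SE 0.45), 1.34 (SE 0.58) and 0.67 (SE 0.30). The median of this list was 0.13 without wild-type P21 library 2, 0.10 without knockout P21 library 3, 0.53 without knockout P21 library 2 and -0.04 without wild-type P21 libraries 1 and 2.

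Nuclear genes of oxidative phosphorylation lay on the negative side. Of 60 tested, 56 had a negative difference and the median was -0.95, since their median change with age was 2.14 in wild type and 1.13 in knockout. Only 2 had an unadjusted p under 0.05 (3.33%, against 6.94% over all genes), and these were Uqcrq, a subunit of complex III, and Atp5e, a subunit of the ATP synthase. Uqcrq was at 1608, 2727 and 534 FPKM in wild type and 497, 849.7 and 356 FPKM in knockout at P21, a difference of -1.74 (95% interval -3.34 to -0.14). Atp5e was at 1603, 2532 and 363 FPKM in wild type and 328, 619 and 281 FPKM in knockout, a difference of -1.95 (95% interval -3.76 to -0.13). In both genes wild-type P21 libraries 1 and 2 were the highest of the 12 and library 3 lay within the knockout range. The positive members were Uqcrc2 (0.51), Ndufs1 (0.18), Sdhc (0.16) and Sdha (0.11).

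The cytoplasmic ribosomal protein genes showed the same split between libraries. Of 46 tested, 45 were negative with a median of -1.27 and none had an unadjusted p under 0.05. Set against the 12-library mean their median was 1.07, 1.94 and -0.47 in the wild-type P21 libraries and -0.46, 0.66 and -0.61 in the knockout P21 libraries. Without wild-type libraries 1 and 2 the median difference was 0.02 for ribosomal proteins and -0.09 for oxidative phosphorylation. Without library 2 alone the medians were -0.75 and -0.52. Rpl38 was an example, with 766, 1314 and 149 FPKM in wild type and 159, 380.1 and 129 FPKM in knockout. The 13 proteins encoded by mitochondrial DNA had a median of -0.07 (-0.27 without wild-type P1 library 3 and 0.10 without wild-type P1 library 1), with mt-Co2 at -1.33 (SE 0.53).

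**Figure D3:**
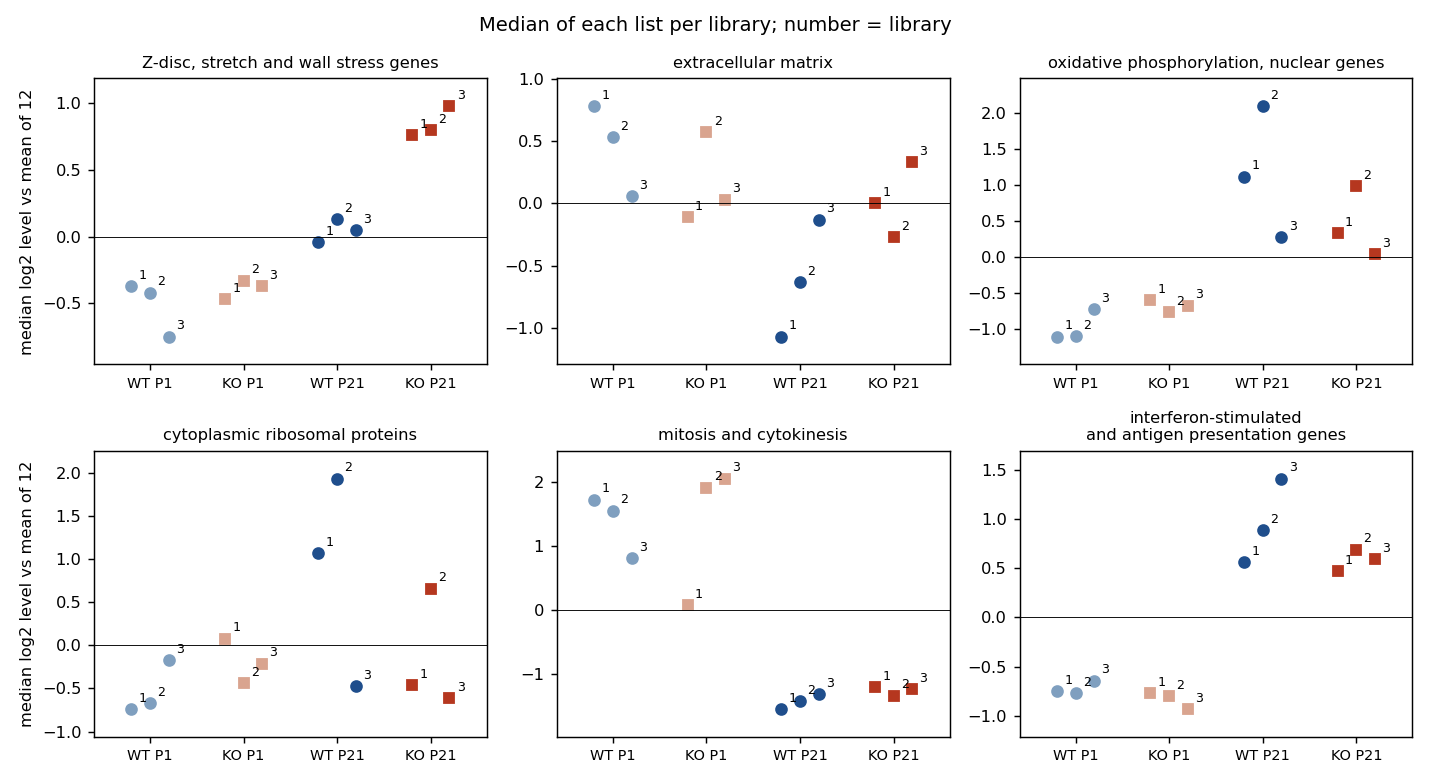
Median log2 level of 6 gene lists in each library relative to the mean of all 12, as circles for wild type and squares for knockout, with the library number beside each symbol. Z-disc and stretch genes separate the P21 genotypes (0.13 at most in wild type, 0.76 at least in knockout), whereas ribosomal protein genes stand at 1.07 and 1.94 in wild-type P21 libraries 1 and 2 and at -0.47 in library 3.

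Both negative lists hold short genes, with median lengths of 1869.5 and 1835 bases against 3883 bases over all tested genes and 6830.5 bases for the matrix list. The Z-disc and stretch list, which lay on the positive side, was also short, with a median of 2299 bases. Over all genes the difference moved with length, from a median of -0.39 for genes of 500 to 1000 bases and -0.27 for genes of 1000 to 2000 bases to 0.18 for genes of at least 8000 bases, of which 73.6% were positive. Genes under 500 bases did not extend this order, with -0.07. Genes shorter than 1000 bases stood at 0.23, 0.35 and 0 in the wild-type P21 libraries and at 0, 0.34 and -0.09 in the knockout P21 libraries, as medians relative to the mean of all 12. With the trend on length removed within each library the medians were -0.75 for oxidative phosphorylation, -1.14 for ribosomal proteins, 0.80 for the matrix and 0.85 for Z-disc and stretch genes. The part of gene length in the difference of each list was not tested further.

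**Figure D4:**
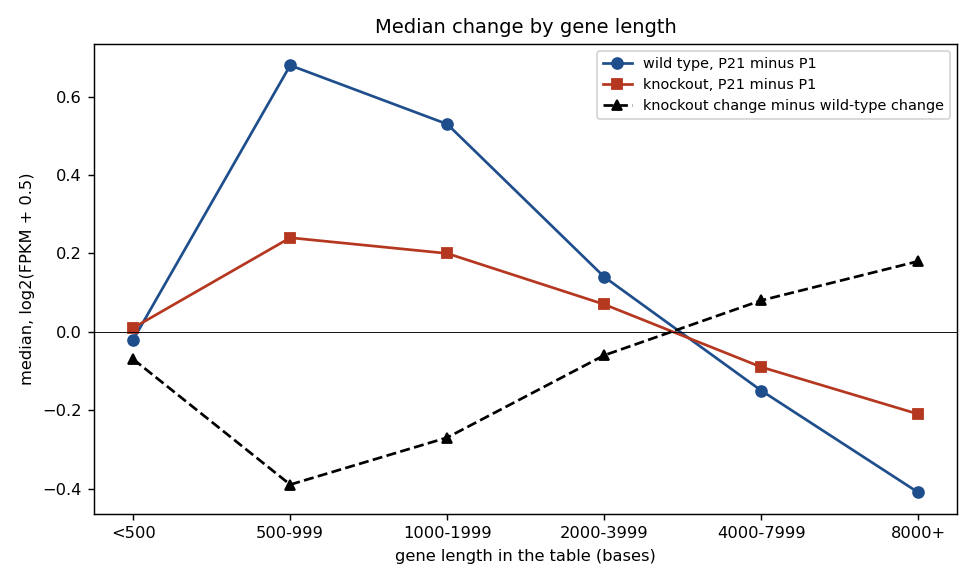
Median over genes, in 6 classes of gene length (bases), of the change from P1 to P21 in wild type (circles), in knockout (squares) and of their difference (triangles), on the log2(FPKM + 0.5) scale. The wild-type line goes from 0.68 for genes of 500 to 1000 bases to -0.41 for the longest and the knockout line from 0.24 to -0.21.

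Negative differences of named genes included immune and vessel genes. Psmb8, a subunit of the immunoproteasome that interferon induces, was at 0.257 to 0.777 FPKM in the 6 P1 libraries and at 9.85, 12.3 and 7.42 FPKM in wild type and 3.78, 4.49 and 4.65 FPKM in knockout at P21, with no overlap. It rose in both, by 3.34 in wild type (adjusted p = 5.23e-06) and by 2.13 in knockout (adjusted p = 0.000127), a difference of -1.22 (SE 0.33). Rsad2, Ifi35 and Psmb9, which interferons also induce, differed by -1.30 (SE 0.41), -1.06 (SE 0.38) and -0.91 (SE 0.33), where Psmb9 overlaps Tap1 on the other strand. The 28 tested interferon and antigen presentation genes had a median of -0.34, with 19 negative and 4 at an unadjusted p under 0.05 (14.3%, against 6.94% over all genes). It was -0.02, with 13 positive, without wild-type P21 library 3, and -0.68 without library 1. It turned to 0.14 on the TPM scale, where the median of all genes moved from 0.02 to 0.45.

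Of the 17 endothelial markers 13 were negative with a median of -0.37, which was -0.11, with 7 positive, without wild-type P21 library 1 and 0.09 on the TPM scale. Ly6a, an antigen of vessel and progenitor cells, differed by -1.83 (SE 0.59), with 594, 295 and 156 FPKM in wild type and 114, 158 and 82.4 FPKM in knockout at P21, and Emcn, endomucin, by -1.08 (SE 0.35). The summed FPKM of the endothelial list was 1276 to 3664 in wild type and 1064 to 1199 in knockout at P21. Its medians relative to the mean of all 12 were 0.79, 0.47 and 0.29 in wild-type and 0.27, 0.14 and 0.31 in knockout P21 libraries. By that measure wild-type library 3 lay within the knockout range. Cma1, the chymase of mast cells, was at 2.34 to 2.77 FPKM in wild type and 3.93 to 6.53 FPKM in knockout at P1, and at 2.61, 1.26 and 0.825 FPKM in wild type and 0, 0.773 and 0 FPKM in knockout at P21. It fell in knockout (adjusted p = 0.000305) and not by the test in wild type (adjusted p = 0.198), and the difference on this scale was -2.44 (SE 0.55). The neutrophil genes S100a8 and S100a9 differed by -2.23 (SE 0.99) and -1.71 (SE 0.70). At P21 S100a9 was at 12.4, 18.7 and 3.59 FPKM in wild type and 2.77, 7.15 and 5.86 FPKM in knockout. S100a8 was at 7.63, 10.4 and 1.4 FPKM against 2.45, 1.21 and 0 FPKM, so that the groups overlapped in both genes. All 5 tested genes of the lymphocyte and neutrophil list were negative. Their median of knockout minus wild type was 0.59 at P1 and -0.36 at P21. The other 11 of that list were too low to test, among them the T cell genes Cd3e and Cd3d (highest 0.221 and 0.141 FPKM) and the B cell gene Cd79a (1.59 FPKM). Cd79b, a B cell gene that was tested, reached 1.55 FPKM in wild-type and 1.43 FPKM in knockout P21 libraries and differed by -0.69 (SE 0.43). Gzmm, a granzyme of natural killer cells, differed by -1.63 (SE 0.48).

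Of the other negative genes, Ces1d, a carboxylesterase that splits stored fat, rose from 0.917 to 2.08 FPKM at P1 to 42.8, 51.8 and 41 FPKM in wild type and to 14.5, 13 and 23.2 FPKM in knockout, a difference of -1.15 (SE 0.35). Ano10, of the anoctamin family, was at 30.4, 40.4 and 12.3 FPKM in wild type and 6.02, 7.03 and 4.84 FPKM in knockout at P21, a difference of -1.81 (SE 0.49). Fah, the last enzyme of tyrosine breakdown, was at 20.7, 8.64 and 3.61 FPKM against 1.19, 2.06 and 2.72 FPKM, a difference of -2.31 (SE 0.67). In all 3 the P21 groups did not overlap, and in Ano10 and Fah wild-type library 3 was the nearest to the knockout. Tepsin, an accessory protein of an adaptor complex for vesicles, differed by -0.78 (SE 0.23), and Nectin2, an adhesion protein of cell junctions, by -0.69 (SE 0.21). Fam110d and Saysd1 differed by -1.21 (SE 0.35) and -1.83 (SE 0.48). Saysd1 was at 11.2, 13.4 and 4.77 FPKM in wild type and 3.05, 4.84 and 3.66 FPKM in knockout at P21. Wild-type library 3 thus lay within the knockout range for Saysd1.

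Of the 24 genes, 3 were loci of short RNAs. They are uncertain, since each lies within a longer gene on the same strand whose reads cannot be told apart from its own. Mir7052 (chr7:44119771-44119835 in the table, 65 bases, in Josd2) had 4, 15 and 5 reads in wild type and 8, 9 and 6 in knockout at P1, and 0, 0 and 1 in wild type and 8, 13 and 22 in knockout at P21. Mir23b (chr13:63448298-63448371 in the table, 74 bases, in Aopep) had 0, 0 and 6 reads in wild type and 16, 4 and 16 in knockout at P21. SNORA2C (in Kansl2) had 4, 10 and 12 reads in wild type and 2, 0 and 0 in knockout at P21. Their fitted differences of 4.41, 4.94 and -3.68 depend on the pseudocount and give no bound. Mature RNAs of these microRNA loci are shown from RefSeq (GRCm38.p6) with the seed, bases 2 to 8, in capitals, and the 3 seeds shown differ. The 3p arm of Mir23b is named only.
mmu-miR-7052-5p: uGUGGGAAgguggaggccuuu
mmu-miR-7052-3p: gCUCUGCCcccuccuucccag
mmu-miR-23b-5p: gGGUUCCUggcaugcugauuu

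**Figure D5:**
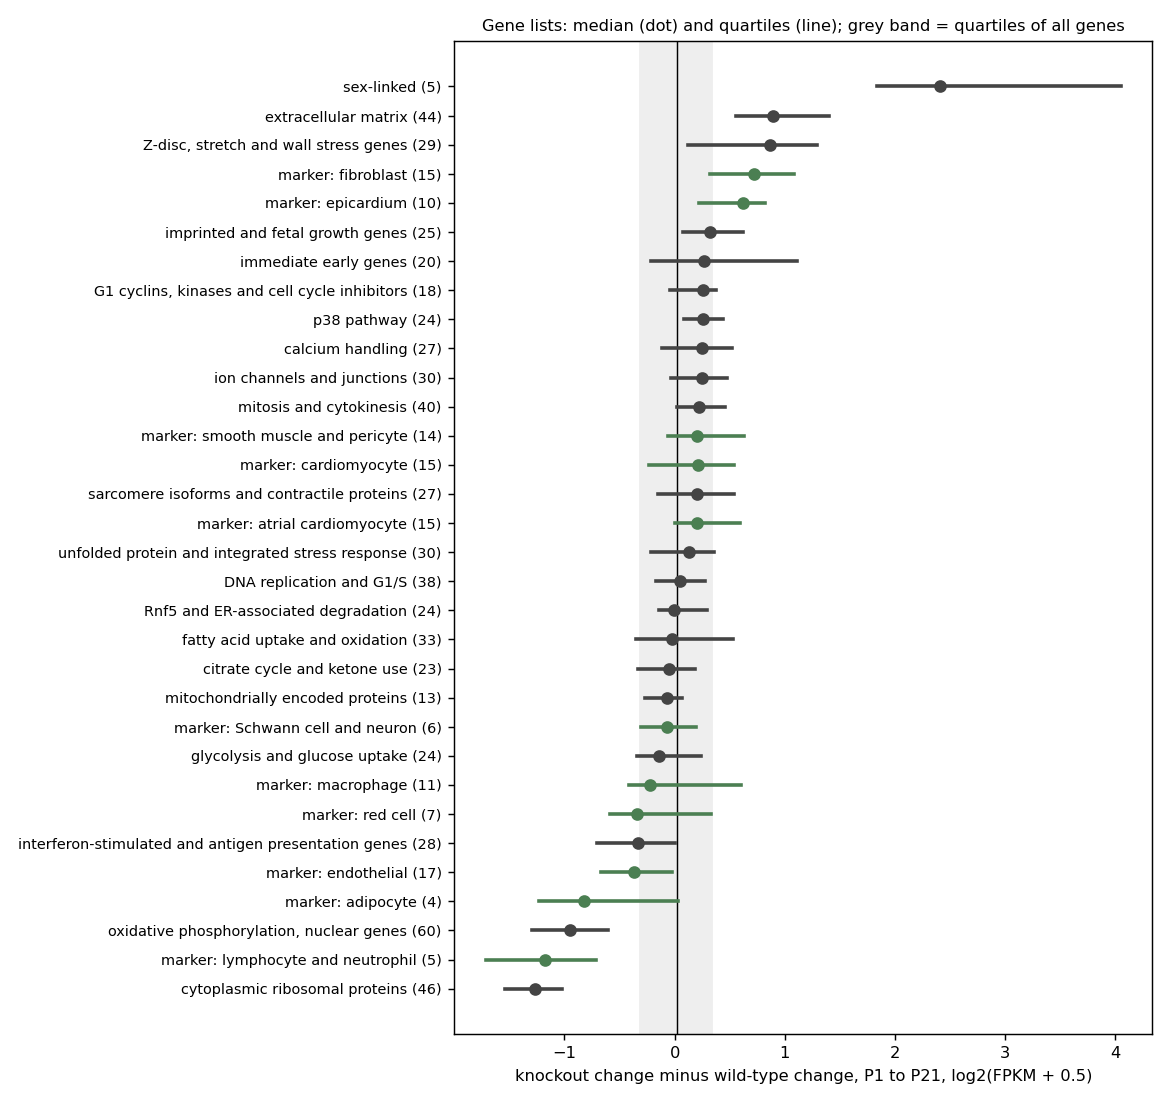
Median (dot) and quartiles (line) of the genotype by day difference for each gene list, with the number of tested genes in brackets and cell type markers in green; the grey band spans the quartiles of all 13537 genes, from -0.31 to 0.34. By median, the matrix (0.89) and Z-disc and stretch (0.87) lists lie above the band and oxidative phosphorylation (-0.95) and ribosomal proteins (-1.27) below it. Also above are the sex-linked genes (2.41) and the fibroblast (0.72) and epicardium (0.62) markers. Also below are markers of lymphocytes and neutrophils (-1.18), adipocytes (-0.83), endothelium (-0.37) and red cells (-0.34) and the interferon list (-0.34).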

How the data were processed

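The authors deposited 1 table of FPKM values for 56748 genes. The tools that the submitters' processing notes list, with no roles, are edgeR, featureCounts, Subread, FastQC and TopHat2 (version 2.0.13). They name several genome builds, and since the build behind the table is not stated, coordinates are printed as the table has them. FPKM times gene length came in whole read steps for 100% of nonzero values (within 0.05 of a read), and the reads that come from these steps showed a scaling factor of 0.605 to 1.17 per library in the deposited FPKM.

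Genes with FPKM of at least 1 in at least 3 libraries were fitted with limma 3.58.1 in R 4.3.3 on log2(FPKM + 0.5), with 1 mean per group and trended, robust variance. P-values were adjusted by Benjamini-Hochberg over all 13537 genes with a threshold of 0.05. On simulated data the fit was checked only for the mean size and direction of planted differences. The simulated noise was independent between libraries, so shifts of a whole library were not covered. Of 793 entries in 32 gene lists, 792 were in the table and 727 were tested. Named genes are Csrp3, Rnf5, Mapk14, the 12 per direction with the smallest p (highest group mean of at least 5 FPKM, official name) and up to 4 per list by p; a few list members outside it were added after their values were seen. The members and lists were chosen with earlier results of these data known. The main fit did not pair libraries by replicate number. Alternatives covered pseudocounts, filters, scaling, weights, a replicate block, Xist as a covariate, gene length and libraries left out.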

Additional observations from a re-analysis of the deposited data

How the results depend on the processing

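The count of genes called for the genotype by day difference was 0 in 26 of 27 alternatives, and 293 without wild-type P21 library 3, so that it ran from 0 to 293 over the omissions of 1 library; the cause was not tested. That set left 2 wild-type P21 libraries, 1 and 2. The replicate block gave 0 calls and 1012 genes at an unadjusted p under 0.05, against 940 without it. Same-numbered libraries had correlations of their deviations of -0.30 to 0.49, with 6 of 18 over 0.1. Between the genotypes at P21 they were 0.03, 0.49 and 0.35 for libraries 1, 2 and 3. Whether the numbers mark a shared batch or litter was not tested. Library weights gave 0 calls and 2813 genes at an unadjusted p under 0.05, and Xist as a covariate 0 and 1448. The weights were uneven, with 6.82 for knockout P21 library 1 as the highest. Wild-type P21 libraries 1, 2 and 3 had weights of 0.477, 0.218 and 0.274.

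Rescaling to TPM moved the median of all genes to 0.45, and rescaling that leaves out mitochondrial genes and the 20 most abundant ones moved it to 0.44. Among 3779 gene values under alternatives 20 changed sign. Under the second rescaling these were Atf4 (0.02), Mapk14 (0.02), Nkx2-5 (0.09), Slc2a1 (0.00), Cidea (0.04) and Prx (0.12), and under TPM Nkx2-5 (0.04) and Prx (0.08). Without wild-type P21 libraries 1 and 2 they were Rpl38 (0.03), Trib3 (0.04), Mapkapk5 (-0.05), Slc2a1 (0.01), Cidea (0.22), Dkk3 (-0.81), Kcnj3 (-0.31) and Hba-a1 (0.05). The rest were Slc4a1 (0.24) and Uchl1 (-0.18) with library weights, and Uchl1 over the omissions of 1 library (-0.02 without wild-type P21 library 2 to 0.60 without library 1) and without both P21 libraries numbered 2 (-0.23). The 31 gene values that became calls were all from the omission of wild-type P21 library 3. The alternatives without a trend on length and without both P21 libraries numbered 2 were chosen after seeing the data. A quasi-likelihood count test was planned and not run, since the deposited values are not counts.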

Other observations

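The 30 tested ion channel and junction genes had a median of 0.25, with 20 positive, which was 0.08 without wild-type P21 library 1. Cdh2, the cadherin of the intercalated disc, fell with age in both genotypes and was at 9.57, 11 and 16.1 FPKM in wild type and 20.3, 21.4 and 20.8 FPKM in knockout at P21, a difference of 1.02 (SE 0.33, unadjusted p = 0.00941). The 27 calcium genes had a median of 0.25 (0.14 without wild-type P21 library 1 and 0.39 without wild-type P1 library 3) and ran from -1.08 to 2.02. The highest was Casq1, the calsequestrin of skeletal muscle (SE 1.10, 95% interval -0.39 to 4.42), and others were Asph at 0.80 (SE 0.30), Camk2d at 0.51 (SE 0.21) and Ppp1r1a at -1.08 (SE 0.43). Tbx20, a transcription factor of heart muscle, was at 1.47, 1.57 and 5.14 FPKM in wild type and 6.14, 5.62 and 7.92 FPKM in knockout at P21, a difference of 1.62 (SE 0.49). The 30 genes of the unfolded protein and integrated stress response had a median of 0.13 (-0.05 without wild-type P21 library 1), with Atf6 at 0.63 (SE 0.23).

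The other marker lists had medians of 0.62 for epicardium (10 tested), 0.21 for smooth muscle and pericytes (14), 0.21 for cardiomyocytes (15), -0.07 for Schwann cells and neurons (6), -0.22 for macrophages (11), -0.34 for red cells (7), -0.83 for adipocytes (4) and -1.18 for lymphocytes and neutrophils (5). On the TPM scale those of Schwann cells and neurons (0.28), macrophages (0.24) and red cells (0.06) were above 0. Single libraries moved several of these medians. Without wild-type P21 library 2 it was 0.36 for red cells, 0.16 for macrophages, 0.29 for epicardium and 0.44 for smooth muscle and pericytes. Without library 1 it was -0.69 for red cells and -0.48 for adipocytes. The epicardial value was 0.10 without knockout P21 library 3 and 0.98 without knockout P21 library 2. Red cells were at -0.03 without knockout P1 library 1, macrophages at 0.03 without knockout P21 library 1, and cardiomyocytes at -0.01 without wild-type P1 library 3. The 5 sex-linked genes had a median of 2.41. None of these values was past an adjusted p of 0.05.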
